A study of Mus musculus with 9 samples.

Results

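The 8 genes Ttr, Aqp1, Clic6, Folr1, Kl, Enpp2, Slc4a5 and Prlr are classic markers of the choroid plexus epithelium, and their levels were followed in mouse brain tumours and in normal cerebellum. They were chosen by gene symbol and are 8 of the 24444 symbols in a table of RNA-seq counts per gene. All 8 had enough counts to be tested, as did 15171 symbols in all. The table holds 9 libraries in 3 groups of 3. MycT58A tumours and EV tumours came from a mouse model of WNT medulloblastoma (mWnt-MB), a childhood tumour of the hindbrain driven by beta-catenin. Their implanted cells carried Blbp-Cre, homozygous floxed exon 3 of Ctnnb1 (Ctnnb1Ex3flx/flx), homozygous floxed Trp53 (Trp53flx/flx) and 1 copy of the floxed E545K form of Pik3ca (Pik3caE545K +/flx). The cells also carried either the MycT58A construct, a form of Myc whose protein is degraded more slowly, or EV, the matching group without it. Both tumour types were grown in the brains of CD1-nude mice, and GFP-positive regions were cut out. Control cerebellum came from CD1-nude mice with no tumour. The comparison between tumour types asks what MycT58A adds to the model, and the comparisons with control set each tumour against normal tissue.

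The model limits what the groups can show. Blbp-Cre recombines in radial glia and other neural progenitors, CD1-nude hosts lack a thymus and its T cells, and a host brain still has its own choroid plexus. A GFP-positive piece can therefore hold host tissue. The labels call the 3 samples of a condition biological replicates and give no cell preparation or clone for each tumour. Tumours of a condition may therefore share a preparation, and p-values measure only the spread between these samples. In bulk tissue, fewer cells of a type and less RNA per cell cannot be told apart.

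The choroid plexus is a sheet of epithelium in the brain ventricles that secretes cerebrospinal fluid and forms the barrier between blood and that fluid. Its cells move water and ions through channels and transporters, and they carry hormones, folate and vitamins into the fluid. Here the 8 genes fall into 3 roles. Aqp1 (a water channel), Clic6 (a member of the chloride intracellular channel family) and Slc4a5 (a sodium bicarbonate cotransporter) belong to water and ion movement. Ttr encodes transthyretin, the carrier of thyroid hormone and of retinol with its binding protein, and Folr1 encodes folate receptor alpha. Enpp2 encodes autotaxin, the secreted enzyme that makes lysophosphatidic acid, Kl encodes klotho, a co-receptor for FGF23 and also a shed protein, and Prlr encodes the prolactin receptor.

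Promoter sequence was available from RefSeq (GRCm38.p6) for 4 of the 8 genes: Aqp1, Kl, Slc4a5 and Prlr. It is shown for Aqp1, the gene with the largest difference between groups, and for Slc4a5 and Kl, which were high together in single libraries. Each run is the 250 bases before the RefSeq start on the plus strand, 5′ to 3′. The windows lie at chr6:55336049-55336298 for Aqp1, chr6:83237125-83237374 for Slc4a5 and chr5:150952357-150952606 for Kl. The Slc4a5 window lies inside the gene as annotated by GENCODE, which starts at 83219828, so it precedes an internal start. Capitals mark GC boxes (GGGCGG on either strand), a motif picked after the data were seen.
Aqp1: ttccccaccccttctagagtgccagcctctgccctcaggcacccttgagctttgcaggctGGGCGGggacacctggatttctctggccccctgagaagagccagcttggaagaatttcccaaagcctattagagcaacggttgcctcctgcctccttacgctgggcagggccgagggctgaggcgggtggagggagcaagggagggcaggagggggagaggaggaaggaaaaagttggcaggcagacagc
Slc4a5: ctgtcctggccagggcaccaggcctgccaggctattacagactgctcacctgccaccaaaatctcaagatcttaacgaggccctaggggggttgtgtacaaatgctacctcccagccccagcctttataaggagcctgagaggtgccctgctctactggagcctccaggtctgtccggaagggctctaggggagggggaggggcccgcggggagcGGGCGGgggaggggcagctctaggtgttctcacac
Kl: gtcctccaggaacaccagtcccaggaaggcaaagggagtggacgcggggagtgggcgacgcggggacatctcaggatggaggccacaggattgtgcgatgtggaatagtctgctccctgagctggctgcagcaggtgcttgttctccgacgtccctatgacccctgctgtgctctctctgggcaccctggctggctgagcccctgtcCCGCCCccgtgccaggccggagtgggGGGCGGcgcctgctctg
The 3 stretches are rich in G and C, at 62.0% for Aqp1, 62.8% for Slc4a5 and 66.8% for Kl. Aqp1 and Slc4a5 hold 1 GC box each and Kl holds 2, and 32.7% of all 32851 promoter windows hold at least 1 in the 250 bases before the start. The windows run on to 50 bases after the start, and the 3 motifs that follow were searched over the whole window. The MYC E-box CACGTG (in 7.15% of all windows), the OTX2 motif TAATCC (7.06%) and the TCF/LEF core TCAAAG (16.0%), searched on both strands, do not occur in these 3 windows. Prlr has 3 start windows, none of them with a GC box, and the second holds 1 TCAAAG that begins 221 bases before the start, at position -221. The letters describe the windows and say nothing about binding.

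Total counts per library ran from 16631523 to 30410089, so that 3 counts, used as the floor for a library without counts, make 0.103 to 0.170 CPM (counts scaled to a common library size). Levels below are CPM on library sizes scaled with the TMM method, and differences are log2 fold changes from edgeR's quasi-likelihood test on all 9 libraries, adjusted over all 15171 genes with a threshold of 0.05. The label of the control tissue was checked, because another label speaks of cortex: Gabra6 and Cbln3, genes of cerebellar granule neurons, stood at 522 to 888 and 1033 to 1646 CPM in controls. The forebrain gene Emx1 had 0 counts in all 9 libraries, so it cannot tell tissues apart here. Tbr1, another forebrain gene, stood at 0.576 to 0.933 CPM in controls. Myc levels were set beside the labels, but counts per gene cannot separate reads of the construct from those of the cells' own Myc. Myc stood at 727 to 918 CPM in MycT58A tumours and at 0.940 to 32.02 CPM in controls. EV replicates 1 and 2 stood at 360 and 19.9 CPM, and the library labelled EV replicate 3 at 762 CPM, inside the MycT58A range, so results of the 8 genes that rest on that library are also given without it. Where EV tumours have 3 values in a row, that library comes last.

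Clic6 was high in all 3 MycT58A tumours and Aqp1 was high in all 3 EV tumours relative to the other tumour type, and with all 9 libraries these were the only members of the 8 that passed the test in any comparison. Between MycT58A and EV tumours, 2 of 8 passed, 1 higher and 1 lower, where 8.30% of all tested genes passed (3.28% higher and 5.02% lower). Between EV tumours and control 1 of 8 passed, Aqp1, where 57.0% of all tested genes passed (30.7% higher and 26.3% lower). Between MycT58A tumours and control 2 of 8 passed, Aqp1 and Clic6, both higher, where 62.2% of all tested genes passed (31.2% higher and 31.0% lower). The members' shares against control thus lay below those of all genes. Without the library labelled EV replicate 3, Enpp2 also passed for MycT58A minus EV and for EV minus control, which made 3 and 2 of 8, and 2 of 8 passed for MycT58A minus control. Calls over all tested genes rose as well without it, to 25.7% (3977 genes) for MycT58A minus EV, 58.0% for EV minus control and 68.1% for MycT58A minus control. The median log2 difference over the 8 genes was -1.93 for MycT58A minus EV, 2.08 for EV minus control and 0.51 for MycT58A minus control, where the medians over all tested genes were -0.04, 0.14 and -0.02. The comparisons share samples, so their values are given side by side and not as separate evidence.

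**Figure D1:**
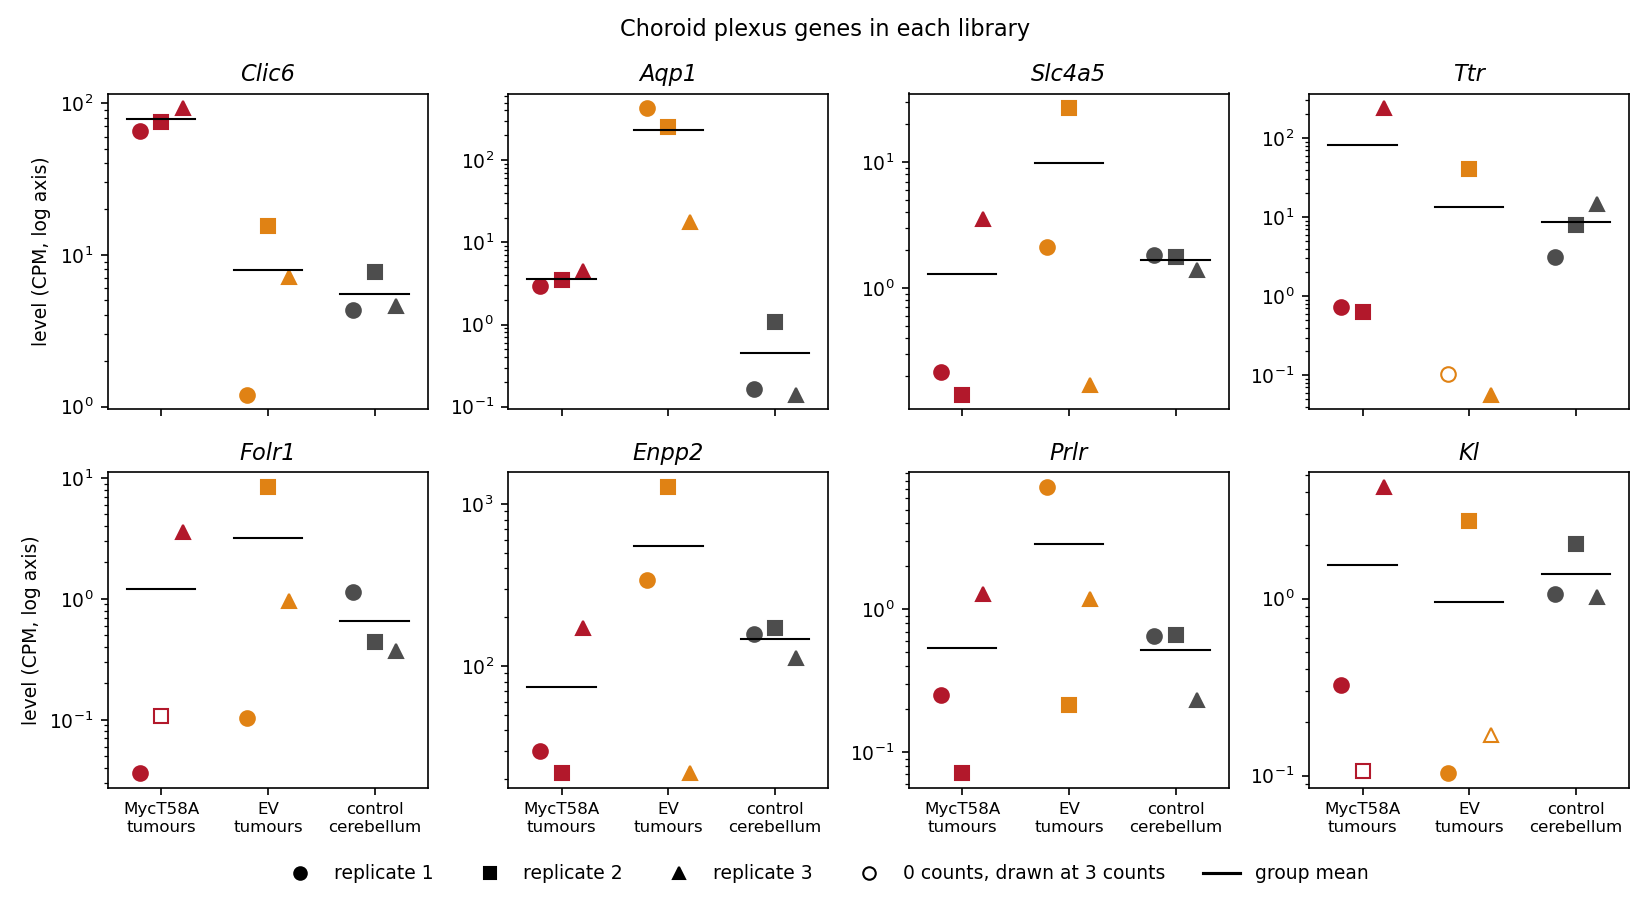
Levels of the 8 genes in each library, in CPM on a log axis, with bars at group means and open points for libraries with 0 counts, drawn at 3 counts, for MycT58A tumours, EV tumours and control cerebellum. The 3 MycT58A libraries of Clic6 sit between 65.6 and 92.7 CPM, above every other library, and the 3 EV libraries of Aqp1 sit between 17.9 and 431 CPM, above every other library.

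Aqp1 (ENSMUSG00000004655.5, chromosome 6, 55336432 to 55348555, plus strand, GRCm38/mm10) was the gene with the largest contrast. It stood at 2.91, 3.44 and 4.52 CPM in MycT58A tumours, at 431 and 254 CPM in EV replicates 1 and 2 and 17.9 CPM in the library labelled EV replicate 3, and at 0.163, 1.06 and 0.140 CPM in controls. No groups overlapped, and the order was EV above MycT58A above control. The control values rest on 4, 24 and 3 counts. Aqp1 fell 64.6-fold in MycT58A relative to EV tumours (log2 fold change -6.01 ± 1.16 SE, edgeR adjusted p = 0.0242). It rose 510-fold in EV tumours relative to control (8.99 ± 1.36 SE on the log2 scale, edgeR adjusted p = 0.000751). In MycT58A tumours it rose 7.89-fold relative to control (2.98 ± 1.12 SE, edgeR adjusted p = 0.0447). The water channel was thus higher than control in both tumour types, by unequal amounts. Groups that do not overlap were common: among all tested genes 13.6% lay lower without overlap in MycT58A than in EV tumours, 30.3% higher in EV tumours than in control and 41.0% higher in MycT58A tumours than in control.

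The Aqp1 difference between EV tumours and control passed under 17 of 17 alternative settings, at 296-fold without EV replicate 1, 1506-fold without control replicate 2 and 762-fold without the library labelled EV replicate 3. The difference between tumour types was 37.3-fold without EV replicate 1 and 95.01-fold without the library labelled EV replicate 3 (edgeR adjusted p = 0.00194). Its call ended without MycT58A replicate 1, 2 or 3 (edgeR adjusted p = 0.107, 0.102 and 0.107), in an edgeR fit of the 2 tumour groups alone (adjusted p = 0.0720) and by limma-voom (adjusted p = 0.0756). The smaller rise in MycT58A tumours relative to control lost its call without control replicate 1 or 3 (edgeR adjusted p = 0.126 and 0.122), without EV replicate 2 (edgeR adjusted p = 0.0594), without MycT58A replicate 1, 2 or 3 (edgeR adjusted p = 0.0687, 0.0765 and 0.0951) and by limma-voom (adjusted p = 0.320). It was 23.2-fold without control replicate 2.

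Clic6 (ENSMUSG00000022949.9, chromosome 16, 92485736 to 92541243, plus strand) marked the MycT58A tumours. It stood at 65.6, 74.8 and 92.7 CPM in MycT58A tumours, at 1.20 and 15.4 CPM in EV replicates 1 and 2 and 7.14 CPM in the library labelled EV replicate 3, and at 4.33, 7.66 and 4.57 CPM in controls. The lowest MycT58A library lay above the highest EV library, and EV tumours and controls overlapped. Clic6 rose 9.81-fold in MycT58A relative to EV tumours (log2 fold change 3.29 ± 0.75 SE, edgeR adjusted p = 0.0379) and 14.05-fold relative to control (3.81 ± 0.77 SE, edgeR adjusted p = 0.00274). EV tumours averaged 7.92 ± 7.14 CPM and controls 5.52 ± 1.86 CPM (SD, n = 3), a difference of 0.52 on the log2 scale that did not pass (95% interval -1.20 to 2.23, edgeR adjusted p = 0.547). Without overlap 18.2% of all tested genes lay higher in MycT58A than in EV tumours and 41.0% higher in MycT58A tumours than in control.

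The Clic6 rise relative to control passed under 17 of 17 alternative settings. The rise relative to EV tumours was 19.0-fold without EV replicate 2 and 9.50-fold without the library labelled EV replicate 3 (edgeR adjusted p = 0.0377). That call ended without control replicate 1, 2 or 3 (edgeR adjusted p = 0.0693, 0.0685 and 0.0698), without MycT58A replicate 1, 2 or 3 (edgeR adjusted p = 0.104, 0.106 and 0.124) and in a fit of the 2 tumour groups alone (edgeR adjusted p = 0.115).

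**Figure D2:**
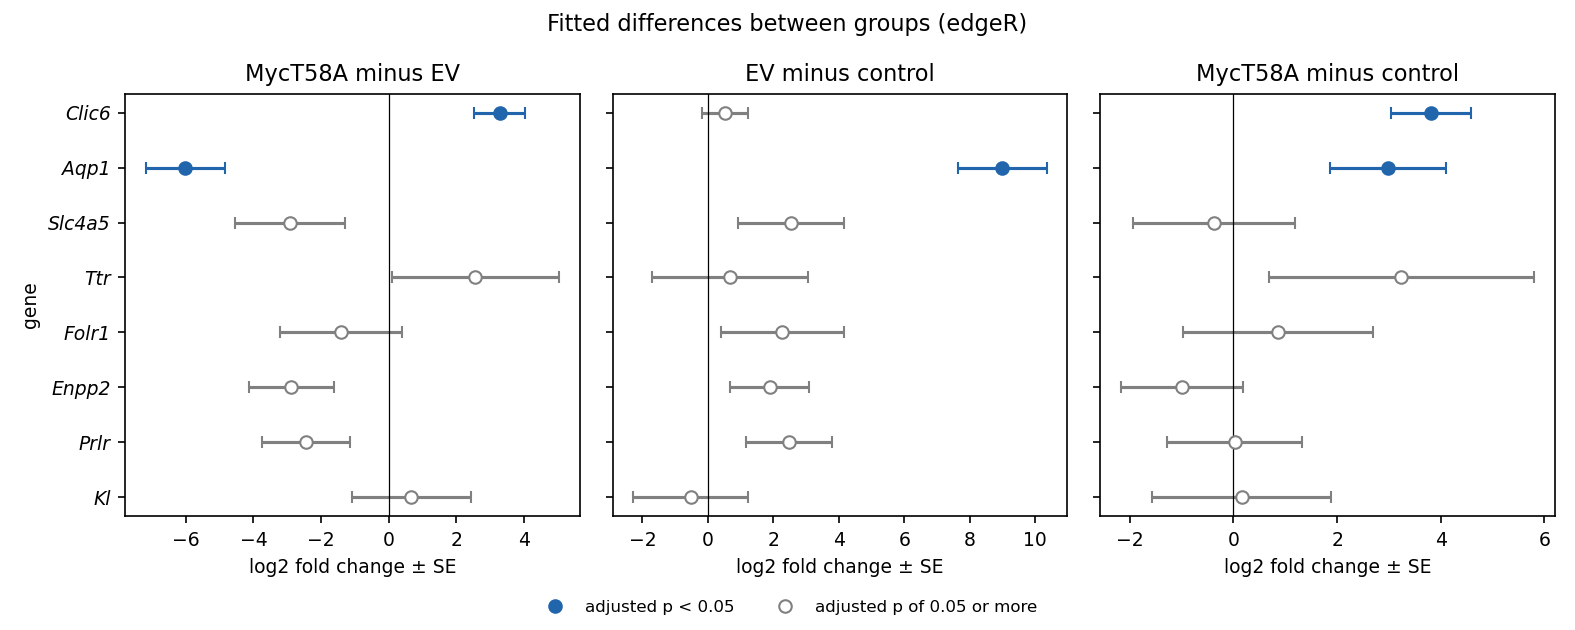
Log2 fold changes of the 8 genes from edgeR for MycT58A minus EV, EV minus control and MycT58A minus control, with bars of 1 SE, and filled points where the adjusted p was under 0.05. Filled points are Clic6 (3.29) and Aqp1 (-6.01) between tumour types, Aqp1 (8.99) for EV against control, and Clic6 (3.81) and Aqp1 (2.98) for MycT58A against control.

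Slc4a5 (ENSMUSG00000068323.12, chromosome 6, 83219828 to 83304945, plus strand), the bicarbonate cotransporter, did not pass in any comparison. It stood at 0.216, 0.142 and 3.54 CPM in MycT58A tumours, at 2.12 and 27.0 CPM in EV replicates 1 and 2 and 0.170 CPM in the library labelled EV replicate 3, and at 1.84, 1.77 and 1.40 CPM in controls. All 3 groups overlapped, and MycT58A replicate 3 and EV replicate 2 each stood far above the rest of their group. The log2 difference between MycT58A and EV tumours was -2.92 ± 1.64 SE (95% interval -6.93 to 1.10, edgeR adjusted p = 0.256), and without EV replicate 2 it was 0.13. For EV tumours minus control it was 2.54 ± 1.61 SE (edgeR adjusted p = 0.204), and -0.50 without EV replicate 2.

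Ttr (ENSMUSG00000061808.4, chromosome 18, 20665280 to 20674321, plus strand), the hormone carrier that is the most abundant of these transcripts in choroid plexus, was carried by single libraries in the tumours. It stood at 0.720, 0.639 and 241 CPM in MycT58A tumours, at 0 and 40.8 CPM in EV replicates 1 and 2 and 0.0567 CPM in the library labelled EV replicate 3, and at 3.15, 7.97 and 14.6 CPM in controls. MycT58A replicate 3 was 356-fold above the mean of the other MycT58A libraries, and EV replicate 2 had 960 counts where the other EV libraries had 0 and 1. In the remaining 4 tumour libraries Ttr stood below every control. No comparison passed: the log2 difference was 2.57 ± 2.48 SE for MycT58A minus EV (95% interval -3.51 to 8.65, edgeR adjusted p = 0.502) and 3.24 ± 2.56 SE for MycT58A minus control (edgeR adjusted p = 0.294). Without MycT58A replicate 3 these became -4.30 (edgeR adjusted p = 0.361) and -3.64 (edgeR adjusted p = 0.265), and without EV replicate 2 the difference for EV minus control was -8.31 (edgeR adjusted p = 0.103).

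Folr1 (ENSMUSG00000001827.12, chromosome 7, 101858331 to 101870788, minus strand), the receptor that takes up folate, stood at 0.0360, 0 and 3.58 CPM in MycT58A tumours, at 0.103 and 8.49 CPM in EV replicates 1 and 2 and 0.964 CPM in the library labelled EV replicate 3, and at 1.14, 0.443 and 0.373 CPM in controls. In MycT58A tumours 84 counts lay in replicate 3, 1 in replicate 1 and 0 in replicate 2, and EV replicate 2 was 15.9-fold above the mean of the other EV libraries. The groups overlapped, and no comparison passed. The log2 difference between MycT58A and EV tumours was -1.41 ± 1.81 SE (95% interval -5.84 to 3.02, edgeR adjusted p = 0.616), and it was 1.22 without EV replicate 2 (edgeR adjusted p = 0.690).

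Enpp2 (ENSMUSG00000022425.16, chromosome 15, 54838901 to 54952892, minus strand), the autotaxin gene, was the most abundant of the 8 genes in controls, where it made up 83.4% to 92.7% of their summed CPM. It stood at 29.9, 21.7 and 171 CPM in MycT58A tumours, at 341 and 1278 CPM in EV replicates 1 and 2 and 21.9 CPM in the library labelled EV replicate 3, and at 158, 172 and 112 CPM in controls. EV tumours held the highest values and overlapped with both other groups. The difference between MycT58A and EV tumours was -2.88 ± 1.25 SE on the log2 scale (95% interval -5.95 to 0.19, edgeR unadjusted p = 0.0484, adjusted p = 0.157). It passed without the library labelled EV replicate 3, at 10.9-fold lower (edgeR adjusted p = 0.0321), and with DESeq2 (adjusted p = 0.0348), and without EV replicate 2 it was 2.46-fold lower (edgeR adjusted p = 0.448). Against control neither tumour type passed (edgeR adjusted p = 0.485 for MycT58A and 0.207 for EV), and the EV difference passed without the library labelled EV replicate 3, at 5.53-fold higher (edgeR adjusted p = 0.0459). Without EV replicate 2 the EV difference was 0.31 on the log2 scale (edgeR adjusted p = 0.819). With limma-voom weights per group the MycT58A difference passed (adjusted p = 0.0370). Enpp2 shares 345 exonic bases with Gm26684 on the other strand, and whether counting used strand is not given in the sources used here. Which cells gave the Enpp2 level of controls was not tested.

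Kl (ENSMUSG00000058488.7, chromosome 5, 150952607 to 150993817, plus strand), the klotho gene, was low everywhere. It stood at 0.324, 0 and 4.31 CPM in MycT58A tumours, at 0.103 and 2.76 CPM in EV replicates 1 and 2 and 0 CPM in the library labelled EV replicate 3, and at 1.06, 2.04 and 1.03 CPM in controls. MycT58A replicate 3 and EV replicate 2 lay above every control, and the other 4 tumour libraries lay below every control. No comparison passed, with log2 differences of 0.67 ± 1.75 SE for MycT58A minus EV, -0.52 ± 1.75 SE for EV minus control and 0.16 ± 1.73 SE for MycT58A minus control (edgeR adjusted p = 0.815, 0.814 and 0.944).

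Prlr (ENSMUSG00000005268.20, chromosome 15, 10177238 to 10349180, plus strand), the prolactin receptor, was highest in EV replicate 1, as Aqp1 was. It stood at 0.252, 0.0710 and 1.28 CPM in MycT58A tumours, at 7.26 and 0.212 CPM in EV replicates 1 and 2 and 1.19 CPM in the library labelled EV replicate 3, and at 0.654, 0.665 and 0.233 CPM in controls. EV replicate 1 held 212 counts of it, and the members other than Prlr and Aqp1 were not at their highest there. No comparison passed: the log2 difference was -2.45 ± 1.30 SE for MycT58A minus EV (edgeR adjusted p = 0.231) and 2.47 ± 1.30 SE for EV minus control (edgeR adjusted p = 0.134). Without EV replicate 1 they were -0.38 and 0.41, and without EV replicate 2 the difference of EV minus control passed (edgeR adjusted p = 0.0444). Prlr shares 100 exonic bases with Gm21973 on the same strand.

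Most of the 8 genes were high together within single tumour libraries rather than across a tumour group. A gene was counted as high in a library when it stood at least 2-fold above both other libraries of its group, with 0.5 CPM added to each, a measure picked after the data were seen. In MycT58A replicate 3, 6 of the 8 genes were high (Ttr, Folr1, Kl, Enpp2, Slc4a5 and Prlr), where 0.356% of all tested genes were. In EV replicate 2, 6 of the 8 were high (Ttr, Clic6, Folr1, Kl, Enpp2 and Slc4a5), where 13.5% of all tested genes were. In MycT58A replicates 1 and 2 and in the library labelled EV replicate 3, 0 of the 8 were high. EV replicate 1 had Prlr and control replicate 2 had Aqp1. The exceptions in MycT58A replicate 3 were the pair that passed the test: Aqp1 was 1.42-fold and Clic6 1.32-fold above the mean of the other MycT58A libraries, while Ttr was 356-fold, Kl 26.6-fold, Slc4a5 19.8-fold, Prlr 7.92-fold and Enpp2 6.61-fold above it. In EV replicate 2 Slc4a5 was 23.5-fold, Enpp2 7.05-fold, Clic6 3.70-fold and Aqp1 1.13-fold above the mean of the other EV libraries.

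The spread within groups comes from the same values as the measure above, so it is no separate evidence. Within MycT58A tumours it split the genes in the same way, and within EV tumours and controls it did not. In MycT58A tumours the SD of log2 CPM was 0.25 for Clic6 and 0.31 for Aqp1, near the median of 0.20 over all tested genes, and it was 1.60 to 4.80 for the other 6 genes. In EV tumours all 8 genes had an SD of 1.84 to 4.97, where the median gene had 0.64. In controls the SD ran from 0.20 for Slc4a5 to 1.33 for Aqp1, where the median gene had 0.17.

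Some other choroid plexus genes were high in the same libraries. Of 35 further genes of that epithelium, 18 (51.4%) were high in EV replicate 2, where 13.5% of all tested genes were. In MycT58A replicate 3, 6 (17.1%) were high, where 0.356% of all tested genes were. Of the 35 genes 32 had enough counts to be tested, while the shares over all genes cover tested genes only. The library labelled EV replicate 3 also had 6 (17.1%), where 6.32% of all tested genes were high: Cldn1, Car12, Slc29a4, Trpv4, Wfdc2 and Krt18. Genes high in MycT58A replicate 3 were the potassium channel genes Kcnj13 and Kcne2, Tmem72, Slc4a10, 1500015O10Rik (Ecrg4) and Krt18; those given with values here were chosen after their values were seen. Kcne2 stood at 0.0720, 0.106 and 2.51 CPM in MycT58A tumours and at 0 and 0.340 CPM in EV replicates 1 and 2, and Tmem72 at 0.0360, 0 and 1.66 CPM in MycT58A tumours and at 0 and 0.340 CPM in those EV libraries. Kcne2 and Tmem72 had too few counts to be tested, with 2, 3 and 59 and with 1, 0 and 39 in MycT58A tumours. Both were higher in MycT58A replicate 3 than in EV replicate 2, as Ttr and Kl were. Kcnj13 went the other way, at 3.24 CPM in MycT58A replicate 3 and 130 CPM in EV replicate 2, as did Sostdc1, a secreted BMP and WNT antagonist, at 12.7 and 131 CPM. Otx2, the transcription factor that specifies choroid plexus, stood at 193, 269 and 206 CPM in MycT58A tumours, at 22.9 and 506 CPM in EV replicates 1 and 2, 7.71 CPM in the library labelled EV replicate 3, and 2.21, 20.9 and 49.1 CPM in controls.

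**Figure D3:**
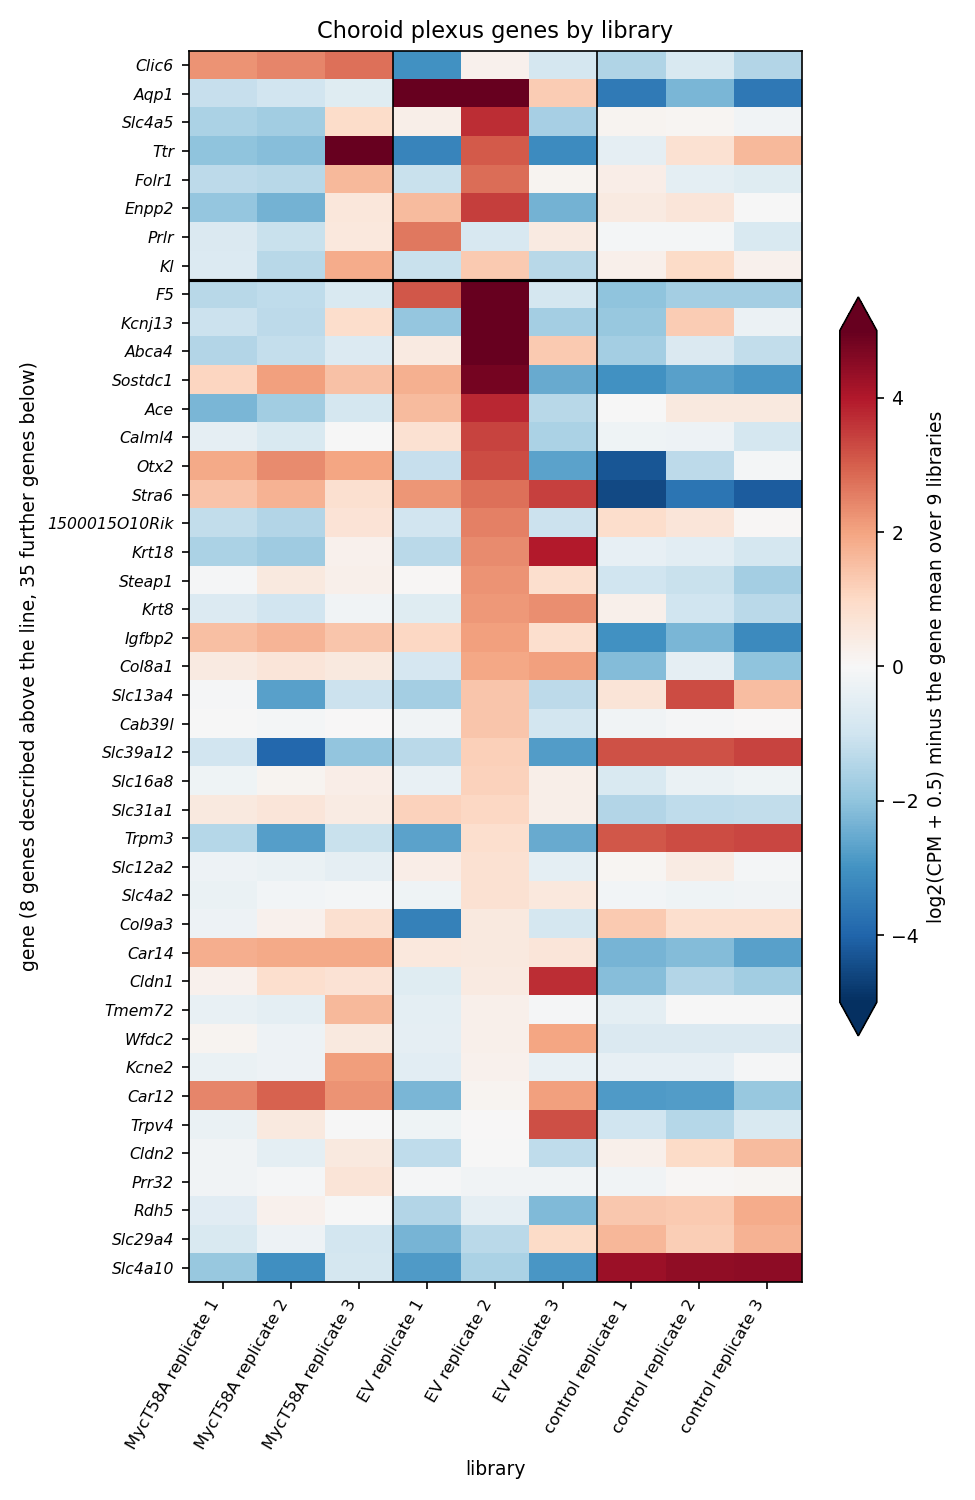
Log2 CPM of the 8 genes described here (above the line) and of the other choroid plexus genes (below it), each relative to its own mean over the 9 libraries, with colours that stop at the ends of the scale. Colours compare a library with all 9, so they do not show the counts within groups given in the text; among the 8 genes Clic6 is above its mean in all 3 MycT58A libraries and Aqp1 in the EV libraries.

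Over groups, 32 of the 35 genes could be tested. Between MycT58A and EV tumours 1 rose and 2 fell (median log2 difference -1.20, against -0.04 over all tested genes). Car14, a membrane carbonic anhydrase, rose 2.54-fold, at 115, 121 and 120 CPM in MycT58A tumours, 46.0, 45.1 and 49.2 CPM in EV tumours and 4.48 to 6.69 CPM in controls (edgeR adjusted p = 0.0104). F5, coagulation factor V, fell 91.3-fold (edgeR adjusted p = 0.0434) and the transporter gene Abca4 35.8-fold (edgeR adjusted p = 0.0440). EV replicate 2 held the highest level of both, 608 CPM for F5, against 53.3 and 2.95 CPM in the other EV libraries, and 214 CPM for Abca4, against 7.23 and 13.7 CPM. Without EV replicate 2 the falls were 11.6-fold for F5 (edgeR adjusted p = 0.0411) and 4.76-fold for Abca4 (edgeR adjusted p = 0.0236). In an edgeR fit of MycT58A and EV tumours alone, 0 genes of this list passed and 0 of each list described below, where 34 of all genes did, so that every call of a listed gene between tumour types ended there; the adjusted p was 0.0632 for Car14, 0.125 for F5 and 0.123 for Abca4. Relative to control, 30.7% of all tested genes rose and 26.3% fell in EV tumours, and 31.2% rose and 31.0% fell in MycT58A tumours. These shares belong beside each list count against control here and below. Of this list 14 rose and 3 fell in EV tumours relative to control. Among them were Car14 (8.14-fold higher), the retinol receptor gene Stra6 (144-fold higher), the bicarbonate transporter Slc4a10 (142-fold lower) and Rdh5 (8.71-fold lower). In MycT58A tumours relative to control 9 rose and 5 fell, with Car14 20.7-fold and Stra6 50.5-fold higher and Slc4a10 81.9-fold and the cation channel Trpm3 30.9-fold lower. Slc4a10 and Trpm3 are also expressed by neurons, and they stood at 167 to 197 CPM in the controls.

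Marker genes of other cell types that a dissected piece could hold were summed in each library. Genes of ependymal and multiciliated cells, which line the ventricles beside the choroid plexus, summed to 5.11 to 16.9 CPM in MycT58A tumours, 12.3 to 47.2 CPM in EV tumours and 48.5 to 96.0 CPM in controls (17 genes), and their highest tumour library was EV replicate 2, with 8 of 17 genes high by the measure above. MycT58A replicate 3 had 1 of 17, Foxj1. Of the endothelial genes 10 of 13, and of the meningeal genes 7 of 15, were also high in EV replicate 2, and 0 of either list in MycT58A replicate 3. Over all tested genes 13.5% were high in EV replicate 2 and 0.356% in MycT58A replicate 3. Meningeal fibroblast genes (15) summed to 1537 to 1698 CPM in MycT58A tumours, 2480 to 14206 CPM in EV tumours and 525 to 1835 CPM in controls. Few genes set these sums: Dcn alone stood at 1017, 1375 and 1316 CPM in MycT58A tumours, and Col1a1 at 6006 CPM in the library labelled EV replicate 3. The median log2 difference of this list was -0.80 for MycT58A minus control and 2.43 for EV minus control. Endothelial genes (13) summed to 84.2 to 158 CPM in MycT58A tumours, 93.3 to 539 CPM in EV tumours and 326 to 370 CPM in controls. Mature oligodendrocyte genes (14) summed to 79.0 to 761 CPM in MycT58A tumours, 103 to 348 CPM in EV tumours and 3149 to 5717 CPM in controls. The highest MycT58A library was replicate 1 for the oligodendrocyte list, at 761 CPM, and replicate 3 for the ependymal list, at 16.9 CPM. In MycT58A replicate 1, 12 of 14 oligodendrocyte genes were high, where 1.05% of all tested genes were. Stratified epithelium genes (11) summed to 22.0 to 26.9 CPM in MycT58A tumours, 40.5 to 1403 CPM in EV tumours, highest in the library labelled EV replicate 3, and 15.2 to 16.2 CPM in controls. The Hba and Hbb genes were listed at 0 in all 9 libraries, and the other erythroid genes summed to at most 24.4 CPM. The part of other cell types in the levels of the 8 genes was not tested.

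**Figure D4:**
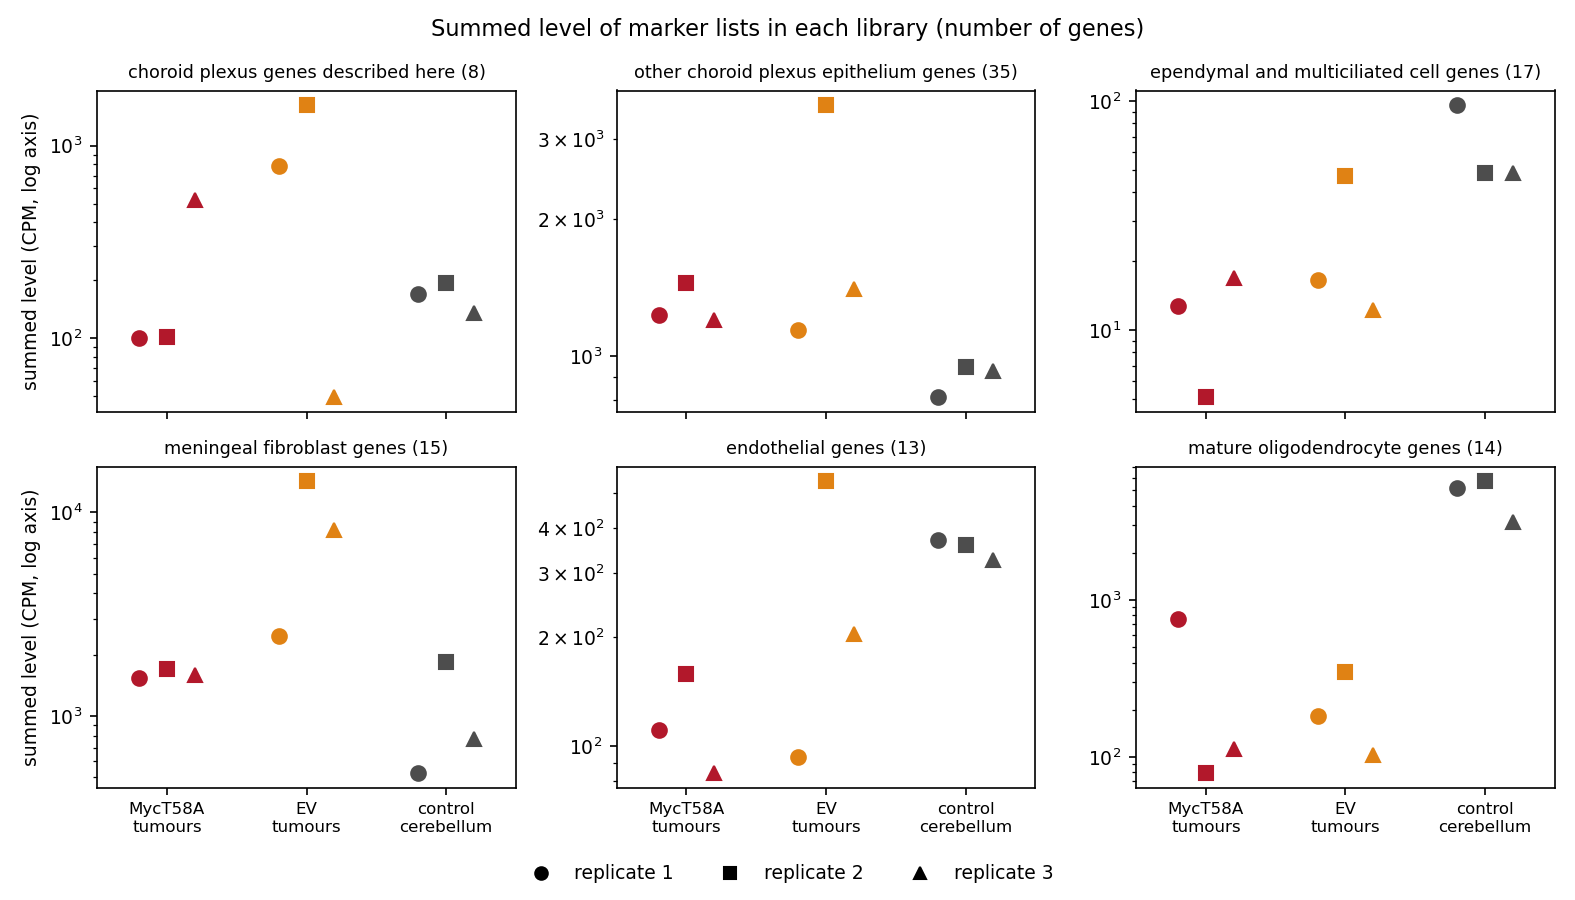
Summed CPM of marker lists in each library, on log axes, for MycT58A tumours, EV tumours and control cerebellum, 1 panel for each list. The 8 genes described here sum to 99.9 to 522 CPM in MycT58A tumours, 49.3 to 1627 CPM in EV tumours and 135 to 194 CPM in controls, and ependymal genes are highest in the controls. The gene with the largest part of the 8-gene sum differs between libraries. That gene is Clic6 in MycT58A replicates 1 and 2, Ttr in MycT58A replicate 3, Aqp1 in EV replicate 1 and Enpp2 elsewhere.

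Between tumour types the ependymal, meningeal, endothelial, oligodendrocyte and erythroid lists had 0 genes past edgeR's adjusted threshold, with 2, 7, 6, 1 and 0 genes at unadjusted p under 0.05. DESeq2 called 0, 5, 4, 1 and 0 of them, and limma-voom 0 in each. Of the ependymal genes tested against control, 8 of 16 fell in MycT58A tumours and 1 of 16 in EV tumours, the axonemal dynein gene Dnaic1 being lower in both. Of the meningeal genes 3 rose and 2 fell in MycT58A tumours and 4 rose and 1 fell in EV tumours, with the collagen gene Col3a1 higher and Nov lower in both. Of 14 oligodendrocyte genes 13 fell in each tumour type, among them Tspan2 and Cnp, and Cldn5 and Ly6c1 were among the endothelial genes that fell (5 of 13 in MycT58A and 2 of 13 in EV tumours). Of the stratified epithelium genes 3 fell in MycT58A relative to EV tumours (Krt5, Krt14 and Lad1), and 7 rose in EV tumours relative to control, where limma-voom called 0 and 3 and DESeq2 4 and 4. In the library labelled EV replicate 3, whose sum of 1403 CPM is given above, 9 of 11 of them were high, where 6.32% of all tested genes were. Without it 4 fell in MycT58A relative to EV tumours, with Krt5 145-fold, Krt14 22.8-fold and Lad1 17.7-fold lower, against 870-, 272- and 480-fold with all libraries, and 6 rose and 1 fell in EV tumours relative to control. In MycT58A tumours relative to control Dsp rose 16.4-fold and Dsc3 fell 8.95-fold. The erythroid list's Slc4a1 fell relative to control, 18.1-fold in MycT58A and 47.6-fold in EV tumours. Leaving that library out also brought calls between tumour types to the meningeal list, 5 lower, and to the endothelial list, 3 lower, at the 25.7% of all genes given above; leaving it out or EV replicate 2 out for whole lists was chosen after seeing the data.

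Roof plate and cortical hem genes, which mark the embryonic territory from which choroid plexus arises, were mixed. Of 12 tested, Zic1 rose (2.87 ± 0.63 SE on the log2 scale, edgeR adjusted p = 0.0340) and Wls, needed for WNT secretion, fell (-1.57 ± 0.34 SE, edgeR adjusted p = 0.0320) in MycT58A relative to EV tumours. Zic1 was 13.2-fold higher without EV replicate 2, against 7.29-fold with all libraries. Relative to control 7 rose and 3 fell in EV tumours, and 5 rose and 3 fell in MycT58A tumours. Bmp4 rose in both, by 4.75 in MycT58A and 5.66 in EV tumours on the log2 scale. Zic1 fell in both, by 3.43 in MycT58A and 6.30 in EV tumours on that scale, and it stood at 445 to 482 CPM in controls. The granule neuron genes Gabra6 and Cbln3 were also lower in every tumour library than in every control. The part of normal cerebellar cells in the Zic1 level of controls was not tested.

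Genes that act with the 8 members were also counted. Against control 57.0% of all tested genes passed in EV tumours and 62.2% in MycT58A tumours, in either direction. For the cargo of transthyretin, 11 of 13 genes of thyroid hormone and retinol transport could be tested. Dio2, which activates thyroid hormone, was the 1 gene that rose in MycT58A relative to EV tumours, 12.3-fold, at 30.9, 43.1 and 23.5 CPM in MycT58A tumours, 0.479, 4.80 and 2.66 CPM in EV tumours and 48.6 to 59.3 CPM in controls (edgeR adjusted p = 0.0228). It was 21.7-fold without EV replicate 2, and the adjusted p was 0.0948 in the fit of the tumour groups alone. DESeq2 called 5 genes of this list between tumour types and limma-voom 3. Relative to control 6 rose and 2 fell in MycT58A tumours and 6 rose and 4 fell in EV tumours. The thyroid hormone transporter Slc16a10 rose 34.8-fold in MycT58A and 52.9-fold in EV tumours, and Slco1c1, another such transporter, fell 7.29-fold in MycT58A and 14.8-fold in EV tumours. Both tumour types had more transcripts of some uptake genes and fewer of others.

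Folate genes other than Folr1 were read as well. Slc19a1, the reduced folate carrier, rose relative to control 5.47-fold in MycT58A tumours and 3.83-fold in EV tumours, and Fpgs, which adds glutamates to folate, rose 16.1-fold in MycT58A and 8.27-fold in EV tumours, with edgeR adjusted p from 9.53e-05 to 0.00155. Between tumour types 0 of 6 passed, with 1 at unadjusted p under 0.05 and 0 called by DESeq2 or limma-voom. Slc46a1, the proton-coupled folate transporter, stood at 10.3 to 14.4 CPM in MycT58A tumours, 13.0 to 24.3 CPM in EV tumours and 17.2 to 18.9 CPM in controls.

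Among the partners of klotho 7 of 9 genes could be tested, and 0 passed between tumour types, with 0 at unadjusted p under 0.05 and 0 called by DESeq2 or limma-voom. Relative to control 3 rose and 2 fell in each tumour type. Adam17, a protease that sheds klotho, rose 2.33-fold in MycT58A and 2.61-fold in EV tumours, and the FGF receptor gene Fgfr3 fell 6.16-fold in MycT58A and 6.42-fold in EV tumours. For the product of autotaxin, 9 of 11 genes of lysophosphatidic acid signalling could be tested, and Plpp1, a phosphatase that degrades it, fell 3.91-fold in MycT58A relative to EV tumours (edgeR adjusted p = 0.0175). The receptor genes Lpar4 and Lpar6 rose relative to control, 4.22- and 5.84-fold in MycT58A tumours and 4.32- and 5.22-fold in EV tumours. Plpp3 and Plppr4 fell in both. Of 11 genes of prolactin receptor signalling 0 passed between tumour types, with 3 at unadjusted p under 0.05, 2 called by DESeq2 and 1 by limma-voom. These 11 include the hormone gene Prl and the receptor gene Ghr, which do not lie downstream of Prlr. Relative to control Socs3 and Socs1, feedback inhibitors of cytokine receptors, rose 8.34- and 3.72-fold in MycT58A tumours and 11.9- and 6.17-fold in EV tumours, and Stat5b fell 2.57-fold in MycT58A and 1.84-fold in EV tumours.

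Relatives of the channel, transporter and enzyme genes were read beside them. Of 5 other aquaporins tested, Aqp11 rose 3.81-fold in MycT58A relative to EV tumours (edgeR adjusted p = 0.0296), the comparison in which Aqp1 fell. Aqp4, the water channel of astrocytes, and Aqp6 fell relative to control in both tumour types, Aqp4 by 23.1-fold in MycT58A and 7.21-fold in EV tumours. Clic1 and Clic5 fell in MycT58A relative to EV tumours, 2.06-fold (edgeR adjusted p = 0.0130) and 5.21-fold (edgeR adjusted p = 0.0300), the comparison in which Clic6 rose. Relative to control Clic1 rose in both tumour types and Clic5 fell in both, by 24.1-fold in MycT58A and 4.62-fold in EV tumours. Clic1 stood at 63.0, 55.0 and 49.0 CPM in MycT58A tumours, 112, 115 and 117 CPM in EV tumours and 30.6 to 31.4 CPM in controls. Of 9 other SLC4 genes 0 passed between tumour types, with 1 at unadjusted p under 0.05 and 0 called by DESeq2 or limma-voom, and relative to control 2 rose and 5 fell in each tumour type, Slc4a7 being higher and Slc4a4 and Slc4a10 lower. Of 5 other ENPP genes Enpp1, which makes pyrophosphate, fell 15.7-fold in MycT58A relative to EV tumours (edgeR adjusted p = 0.0117), at 4.75, 4.61 and 1.49 CPM in MycT58A tumours against 49.9, 27.5 and 93.4 CPM in EV tumours. The adjusted p in the fit of the tumour groups alone was 0.0641 for Enpp1, 0.113 for Aqp11, 0.0698 for Clic1 and 0.111 for Clic5.

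Genes beside Prlr on its chromosome shared its high level in EV replicate 1. Of 13 tested genes that start within 2 Mb after the start of Prlr on chromosome 15, 8 stood more than 3-fold above every other library in EV replicate 1 (0.5 CPM added), with a median of 5.68-fold. Of 9 tested genes within 2 Mb before it the number was 0, with a median of 0.419. Beyond that window Gdnf, at -2.37 Mb, and Dab2, at -3.88 Mb, were also more than 3-fold above (log2 ratios 2.01 and 1.87). The share was 0.606% of all 15171 tested genes and 5.48% of the 584 on chromosome 15. Enpp2 lies on the same chromosome, and 0 of 12 tested genes within 2 Mb of it were that high, while 17 of 18 tested genes that start 3 to 5 Mb after it were, with a median of 7.97-fold. Among the neighbours within 2 Mb of the other 6 members the count was 0, except for Clic6, with 1 of 36. These windows were picked after the data were seen, and what sets the run of high genes was not tested.

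**Figure D5:**
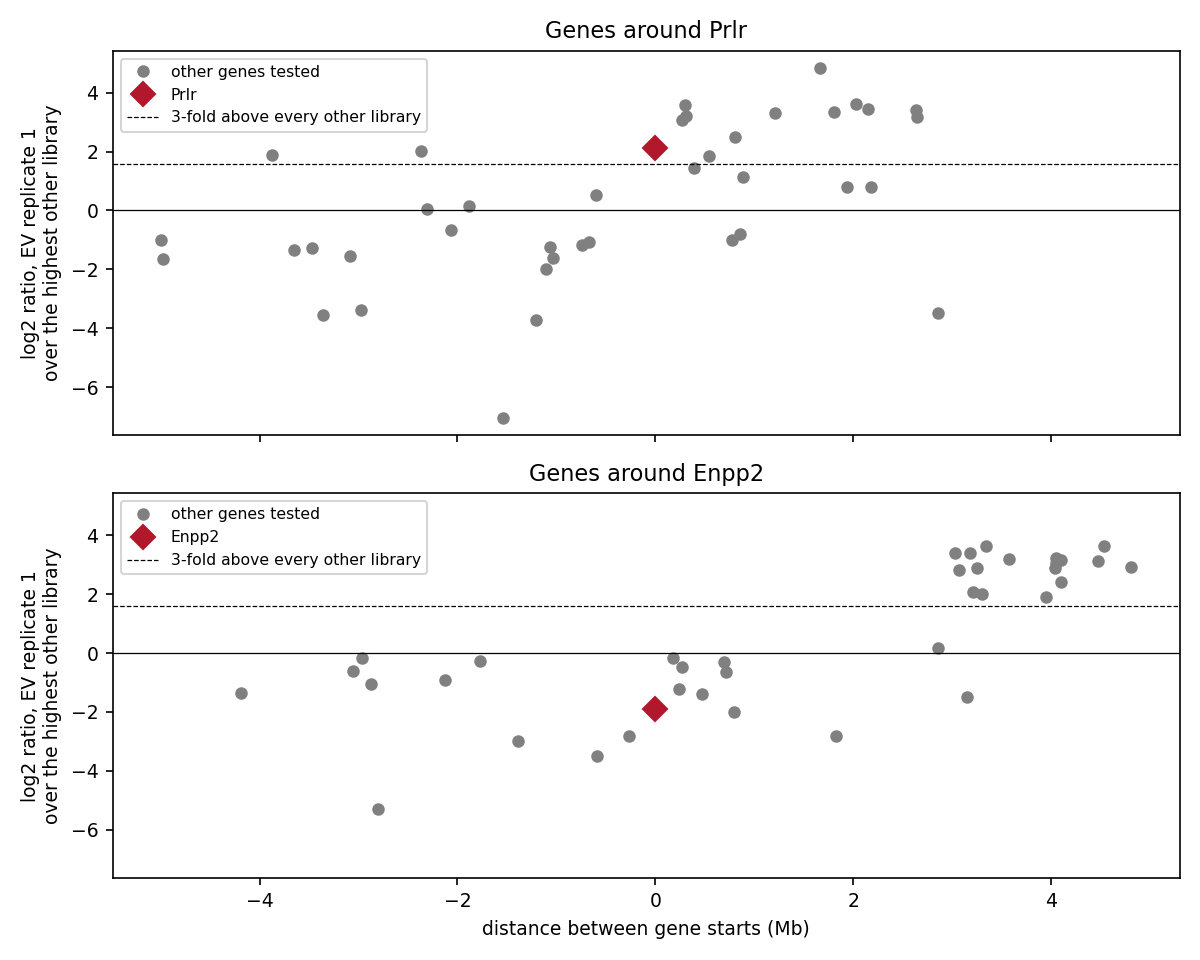
Ratio of EV replicate 1 to the highest other library, on a log2 scale, for tested genes of chromosome 15 by the distance of their start from that of Prlr and of Enpp2. A run of genes with high ratios lies from Prlr onward and another after Enpp2, with 8 of 13 genes above 3-fold within 2 Mb after Prlr and 17 of 18 at 3 to 5 Mb after Enpp2. Gdnf and Dab2, at -2.37 and -3.88 Mb from Prlr, also lie above 3-fold.

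Likeness between profiles was measured as the root mean square difference of log2 CPM over the 9 libraries, each gene centred on its own mean, among 12360 or 12361 genes with at least 5 CPM in their highest group, predicted genes left out. It is given as a description. Among the 8 genes the closest pair was Enpp2 and Slc4a5, at 0.51 log2 units, and the next was Kl and Slc4a5, at 1.40. The widest gap was between Ttr and Aqp1, at 5.79. Next to each other, Enpp2 and Slc4a5 also had Ace, the angiotensin-converting enzyme gene, as the second most like gene, at 0.69 and 0.97. Clic6 was most like Arhgap24 (0.49) and Onecut2 (0.59), which are high in all 3 MycT58A tumours, and Aqp1 was most like Aox3 (0.98) and Rhox5 (1.13), which are high in EV tumours. Kl was most like Pglyrp1 (1.26) and Pcp4l1 (1.31), Folr1 most like Serpina3m (1.19) and Rassf9 (1.39), and Ttr most like Ppp1r1a (2.14) and Unc5d (2.26), the widest distances of the 8. Prlr was most like Golph3 (0.96) and Sub1 (0.98), which start 2.14 and 1.80 Mb after it on chromosome 15.

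Per length of exon, the order of the 8 genes differed between groups. In MycT58A tumours the highest mean was that of Ttr, 68.2 ± 117 CPM per kb, which rests on replicate 3, followed by Clic6 at 19.8 ± 3.52 and Enpp2 at 12.8 ± 14.5. In EV tumours Enpp2 led at 94.6 ± 113, followed by Aqp1 at 89.2 ± 78.9 and Ttr at 11.5 ± 19.8. In controls Enpp2 led at 25.5 ± 5.39, followed by Ttr at 7.22 ± 4.83 and Clic6 at 1.41 ± 0.474 CPM per kb (SD, n = 3 throughout). These leading genes overlapped in MycT58A and in EV tumours, while in controls the lowest Enpp2 level per kb, 19.4, lay above the highest Ttr level, 12.3. At the lower end Kl and Prlr stood below 0.5 CPM per kb in each library, and in controls adjacent genes in the order Slc4a5, Folr1, Aqp1 and Kl overlapped.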

How the data were processed

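RNA was sequenced from 9 mouse tissue samples, and counts per gene symbol were deposited by the authors as whole numbers, with no normalization. Per the labels' protocols, control tissue or GFP-positive tumour regions were microdissected and frozen, RNA was extracted with a NucleoSpin kit and libraries followed Illumina's standard steps. The mm10 build and the programs bcl2fastq, TopHat and edgeR are named per the submitters' processing notes; program versions, read counter, annotation and strand setting: not given in the sources used here. Replicates were numbered in sample order.

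In R 4.3.3, edgeR 4.0.16 was used to filter genes (filterByExpr by group, minimum count 10, minimum total 15), to scale counts by TMM and to fit the quasi-likelihood model with a mean for each group to the 9 libraries (6 residual degrees of freedom). P-values are Benjamini-Hochberg adjusted over 15171 genes, with a threshold of 0.05. The third group's spread also enters a comparison, since dispersion is estimated over all libraries. The SE is the size of the log2 fold change over the root of F, and 95% intervals use that SE and 6 degrees of freedom. Floors of 3 counts cover counting error only. For profile likeness, 2 was the prior count of log2 CPM. The test was tested on simulated data. Alternatives were RLE scaling, library size alone, other low-count filters, only the 2 groups compared, DESeq2 1.42.0, limma-voom (limma 3.58.1) with and without weights per group, and each library left out in turn.

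The 8 members and 17 further gene lists, with 212 distinct symbols that all matched the table (1 by a synonym), were chosen with earlier results of these data known. By the rule for named genes, lists with 1 to 3 genes past the threshold in a comparison have them named and the others the 2 of smallest p in each direction; the text gives a selection of these, and 1 gene is not reported here; for each member come the 2 genes of most similar profile. Genes, positions and exonic bases are from GENCODE vM21 (GRCm38) and promoters from RefSeq (GRCm38.p6). Plots used Python 3.11.15 and matplotlib 3.10.9.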

Additional observations from a re-analysis of the deposited data

How the results depend on the processing

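No paired analysis was possible because the replicate numbers follow sample order and the labels pair no samples. Of 398 recomputed differences of the 8 genes, 340 kept direction and side of the threshold, 19 lost a call, 5 gained one and 34 changed sign, all of the last being differences that did not pass with all libraries. Of the 8 genes, 2 passed for MycT58A minus EV, but 0 in a fit of the 2 groups alone (2 at unadjusted p under 0.05; DESeq2 3, limma-voom 1) and 0 to 3 with 1 library left out. For EV minus control 1 passed, and 1 to 2 with 1 library left out, and for MycT58A minus control 2 passed, with limma-voom 1, with its weights per group 3 and with 1 library left out 1 to 2. Over all genes MycT58A minus EV had 1259 calls, against 34 with only the 2 groups, 3446 with DESeq2, 449 with limma-voom weights per group and 36 to 3977 with 1 library left out. Library size alone gave 301 higher and 938 lower there, against 498 and 761 with TMM, 884 and 629 with limma-voom and 1377 and 1188 without EV replicate 2, and it moved the median of all genes by -0.13 on the log2 scale. The cause of these shifts was not tested.

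Differences that changed sign are given as log2 values. With limma-voom without and with weights per group, Ttr was -4.21 and -4.23 and Clic6 -0.18 and -0.20 for EV minus control, and for MycT58A minus control Ttr was -0.71 and -0.74, Folr1 -2.08 and -2.11, Kl -2.23 and -2.26 and Prlr -0.69 and -0.71. Prlr was also -0.028 with RLE scaling, -0.056 with library size alone, -0.0079 with only the 2 groups and -0.016 with DESeq2. With 1 library left out the ranges were, for MycT58A minus EV, Ttr -4.30 to 11.56, Folr1 -7.10 to 1.22, Kl -2.52 to 4.55 and Slc4a5 -5.72 to 0.13, and for EV minus control, Ttr -8.31 to 1.29, Clic6 -0.43 to 1.03, Folr1 -0.36 to 2.95, Kl -4.39 to 0.049 and Slc4a5 -0.50 to 3.12, and for MycT58A minus control, Ttr -3.64 to 3.88, Folr1 -4.83 to 1.54, Kl -3.04 to 0.75, Slc4a5 -3.18 to 0.17 and Prlr -1.64 to 0.56. Levels under the floor of 0.103 to 0.170 CPM limit Ttr, Folr1, Kl and Prlr most.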
